A study of Homo sapiens with 6 samples.

Results

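The short-arm end of chromosome 16 held more SMAD2 binding sites in Hs578T cells than any other 5 Mb window counted from the start of a chromosome. It comprises positions 1 to 5000000 on hg19, a window of 5 Mb. The 4 deposited ChIP-seq lists held 1142 summits there, a summit being the base of highest signal in a peak. Summits within 250 bp of the next were joined, which gave 593 of the 36648 binding sites of the whole genome (1.62%). The window was chosen by position with the summit counts known, so its density is given below as a description and not as a test. Hs578T, an established line, derives from a human triple-negative breast tumour, a subtype that lacks oestrogen and progesterone receptors and HER2 amplification. Cells of the activin group (2 libraries) were given 50 ng/ml activin A for 1.5 h. Cells of the palbociclib group (2 libraries) were given 1 µM palbociclib for 24 h together with the same activin A treatment. Every ChIP library thus came from activin-treated cells, and none from cells without activin. Each treatment had 1 input library of DNA without immunoprecipitation, against which both of its ChIP libraries were called, so treatment and input cannot be told apart. Replicates carry a number in the labels with no word of separate cultures. The p-values below therefore measure only the spread between these libraries, which may be technical.

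SMAD2 carries the signal of activin and TGF-β receptors to the nucleus, where it binds DNA together with SMAD4 and with partner factors that bring it to promoters and enhancers. Palbociclib inhibits CDK4 and CDK6, kinases that phosphorylate RB and can also phosphorylate SMAD proteins. The comparison of the groups bears on SMAD2 binding under activin with and without inhibition of these kinases. The end of 16p is known for closely packed genes. It carries the α-globin cluster near the telomere, AXIN1 (a scaffold of the complex that degrades β-catenin), TSC2 (a brake on mTOR signalling), PKD1 (polycystin-1), CCNF (cyclin F) and CREBBP (a histone acetyltransferase and coactivator used by SMAD proteins). In the gene order of assembly GRCh38.p14, 170 of the 854 protein-coding genes of the chromosome (19.9%) lie between this end and CREBBP. An annotation of the build of the summit lists was not used here, so the sites are given by position and are not assigned to genes.

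The lists differed in length, from 7241 summits in activin replicate 2 to 27290 in palbociclib replicate 1. The number of reads is not known, and list length also moves with the efficiency of the immunoprecipitation. Activin replicate 2 stood apart as the shortest list, and results that rest on it are also given without it. The lists give each summit a score on a −log10 scale, read as a q-value. It was used here as a rank within a list, written as a percentile from 0 (strongest) to 100 (weakest).

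The window led the 5 Mb windows of the genome in every library. Activin replicate 1 held 358 summits in it, or 1.40% of its list (Wilson 95% interval 1.26 to 1.55, which like every interval here covers counting error only). Activin replicate 2 held 112, or 1.55% (1.29 to 1.86). Palbociclib replicate 1 held 404, or 1.48% (1.34 to 1.63), and palbociclib replicate 2 held 268, or 1.39% (1.24 to 1.57). The 4 shares lie close together although the lists differ in length. They correspond to 71.6, 22.4, 80.8 and 53.6 summits per Mb in the same order. Among the 5 Mb windows counted from the start of each chromosome, this one ranked 1 in each of the 4 lists. The lead was narrow in both replicate 1 lists, where the next window held 355 summits after activin and 400 after palbociclib. In replicate 2 the next windows held 88 and 223. With stretches of 5 Mb started every 250 kb, a step added after the data were seen, the window still ranked 1 in 3 of the 4 lists. In activin replicate 1 it ranked 2 with its 358 summits, behind 366 at chromosome 11 from 62250001 to 67250000.

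**Figure D1:**
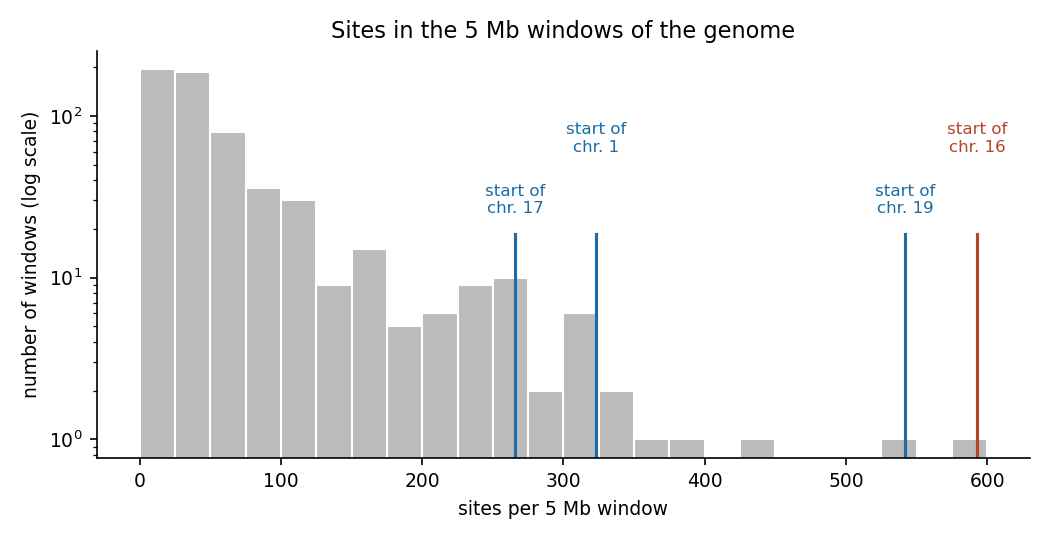
Number of SMAD2 binding sites (all 4 libraries joined) per 5 Mb window (horizontal axis) against the number of windows (vertical axis, log scale). Vertical lines mark the first windows of chromosomes 16, 19, 1 and 17, with 593, 542, 323 and 266 sites. The median of the 595 windows with a site is 38.

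Over the joined lists the window held 593 sites, 15.6 times the median of 38 over the 595 windows that had a site. Among these windows the first 5 Mb of chromosome 19 came next with 542 sites. Among stretches started every 250 kb, the densest that did not overlap the window was the one on chromosome 11, with 559 sites. The starts of chromosomes 1 and 17, other short-arm ends rich in genes, held 323 and 266. In the joined lists the window also led with scores of at least 20, where it kept 172 of 13454 sites. With lists cut to the 7241 best summits it kept 147 of 9954. Each was the highest count of the windows compared, but neither was ranked within single libraries. The second cut keeps the whole list of activin replicate 2, weak summits included. The window also held the most sites found in all 4 libraries, 66 of 5829 (1.13%). The share of common sites was thus smaller than the 1.62% share of all sites.

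Sites were unevenly spread along the window. In 250 kb bins counted from the chromosome end, bin 13 (3000001 to 3250000) held 68 sites, or 11.5% of those in the window. Bin 3 (500001 to 750000) held 63 and bin 9 (2000001 to 2250000) held 51. At the other extreme, bin 17 (4000001 to 4250000) held 2 sites, and bins 5 and 16 held 4 each. The longest stretch without a summit ran 235138 bp, from 3931693 to 4166831. The first site of the window lay at 83775 to 83969. Its last lay at 4942397 to 4942513, in both replicate 1 lists with scores of 3.71 and 3.33. The first site beyond the edge lay at 5007749 to 5007773, in 3 lists, with scores of 17.4, 14.5 and 6.36. The profile recurred between libraries. Pearson's r of the summit counts over the 20 bins ran from 0.758 to 0.953 over the 6 pairs of libraries, and the 3 pairs with activin replicate 2 gave the values below 0.77. Bins share local features such as gene content, so r is a description.

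**Figure D2:**
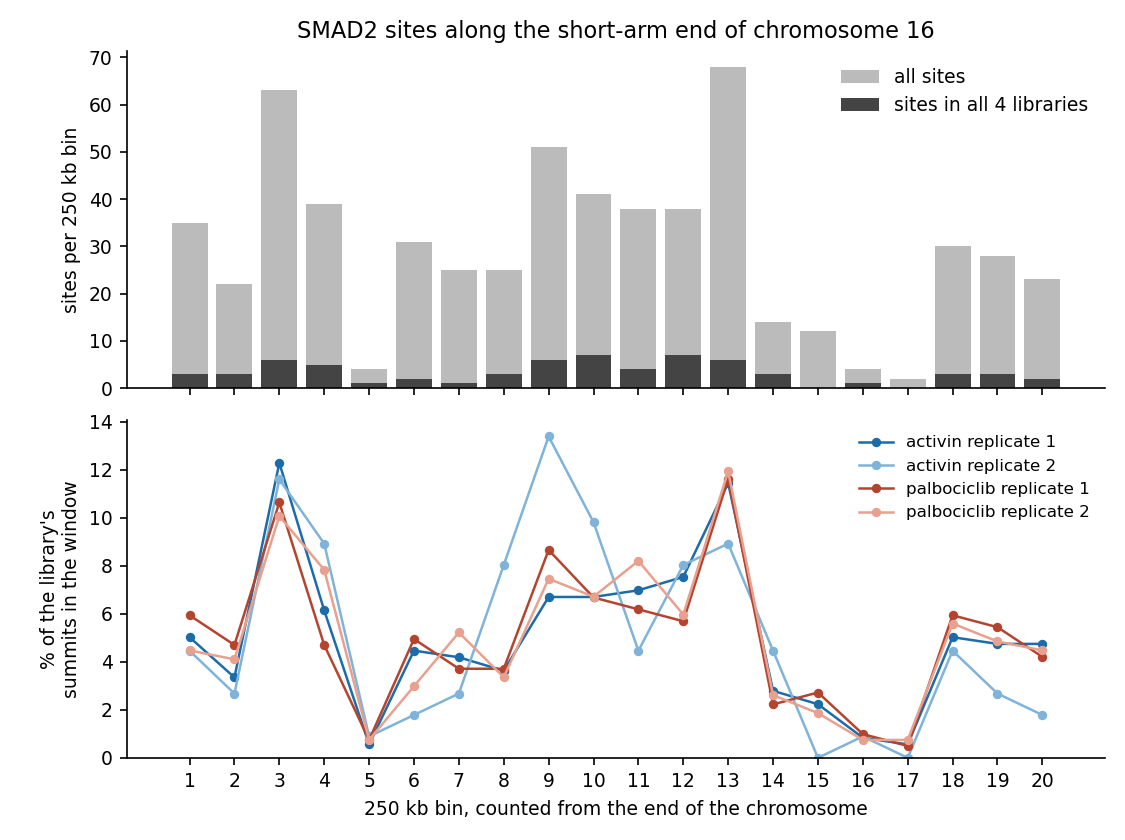
Top, sites per 250 kb bin (grey) and sites found in all 4 libraries (dark), with bins counted from the end of the chromosome. Bottom, each library's summits in the bin as a percentage of its summits in the window. Bins 3 and 13 hold 63 and 68 sites, and activin replicate 2 lies above the other lines at bins 8 and 9.

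The share of summits per bin was compared between treatments in bins with at least 10 sites. Both palbociclib libraries lay above both activin libraries in 4 of the 17 such bins of the window, against 16.5% of the 1027 such bins of the genome. These were bins 2, 13, 18 and 19. Both lay below in 3 of 17, bins 3, 12 and 14, against 9.25% of bins genome-wide. In bin 13 the libraries (replicates 1 and 2) held 41 and 10 summits after activin and 47 and 32 after palbociclib. In bin 3 they held 44 and 13 after activin and 43 and 27 after palbociclib. With such counts and 2 libraries a group, neither bin was tested on its own. Without activin replicate 2 the counts were 5 and 4 of 17 bins, against 33.9% and 27.6% of bins genome-wide, and bin 9 joined the first set and bin 20 the second. Without activin replicate 1 the counts were 9 and 7, against 51.1% and 35.1%.

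The density came with closely spaced summits. Sites with less than 2000 bp between neighbours were joined into runs, a step added after the data were seen. The window held 206 runs, the most of any 5 Mb window, with 2.88 sites per run against 2.09 in the rest of the genome. Runs of 5 or more sites numbered 40, or 19.4% of runs against 7.30% elsewhere. They held 291 sites, 49.1% of those in the window against 24.9% elsewhere. The median gap between neighbouring sites was 1014 bp. Within a library, 50.6% and 34.8% of the window's summits after activin (replicates 1 and 2) had a neighbour within 1000 bp, against 45.5% and 18.2% in the rest. After palbociclib the shares were 42.1% and 44.8%, against 38.6% and 34.6%. Spacing follows from the density that chose the window, so these values were not tested.

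The largest run spanned 18265 bp, from 725169 to 743433, with 20 sites and 44 summits. It ranked 7 in the genome by number of sites. The activin libraries had 16 and 4 of its sites, and the palbociclib libraries had 13 and 11. Only 3 of the 20 sites were in all 4 libraries. One of these, at 740305 to 740330, showed the largest fall in rank after palbociclib in the window and is described below. Runs of 13 sites each lay at 764821 to 773695, 2505375 to 2519284 and 3170625 to 3179638, with 1, 1 and 0 common sites. A run of 9 sites at 623230 to 630432 appeared in the replicate 1 libraries only, with 7 sites after activin, 8 after palbociclib and 0 in either replicate 2 library.

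Sites of the window were shared less often than sites elsewhere. All 4 libraries had a summit at 66 of 593 sites, 11.1% (8.84 to 13.9), against 15.98% (15.6 to 16.4) in the rest of the genome. Another 101 sites were in 3 libraries (17.03% against 23.6%), 143 in 2 (24.1% against 20.9%) and 283 in 1 (47.7% against 39.6%). Without activin replicate 2 the share in every remaining library was 28.0% in the window and 39.3% elsewhere, and with the lists cut to equal length the share in all 4 was 33.3% and 49.5%. The most frequent single pattern in the window was a summit in palbociclib replicate 1 alone, at 147 sites (24.8% against 18.8%). Sites in every library but activin replicate 2 numbered 93 (15.7% against 22.6%). The starts of chromosomes 19, 1 and 17 had 7.75% (5.78 to 10.3), 6.81% (4.54 to 10.1) and 11.3% (8.02 to 15.6) of their sites in all 4 libraries. The value on 16p thus lay within the range of these ends, and no difference from them was tested. By library, the share of sites found in another list was 78.0% and 77.7% after activin, against 80.7% and 90.4% elsewhere. It was 63.5% and 87.6% after palbociclib, against 74.7% and 89.6%. The share was lower inside the window in 4 of 4 libraries, by a mean of 7.13 percentage points (a difference of -7.13 ± 5.57, SD, n = 4). An exact sign-flip permutation test over the 4 libraries gave p = 0.125 (two-sided), the smallest it can give. A site shared by 2 lists enters the values of both, so the 4 values are not independent. The window was also chosen with its summit counts known, so this p-value is a description. The difference was -6.09 ± 4.81 (SD, n = 3) without activin replicate 2. It was -12.4 without activin replicate 1 and -12.1 without palbociclib replicate 2, which moved it by more than 1.5 times. At the level of runs the shares came close: 71 of 206 runs were in all 4 libraries, 34.5% (28.3 to 41.2), against 35.1% (34.3 to 35.8) elsewhere.

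**Figure D3:**
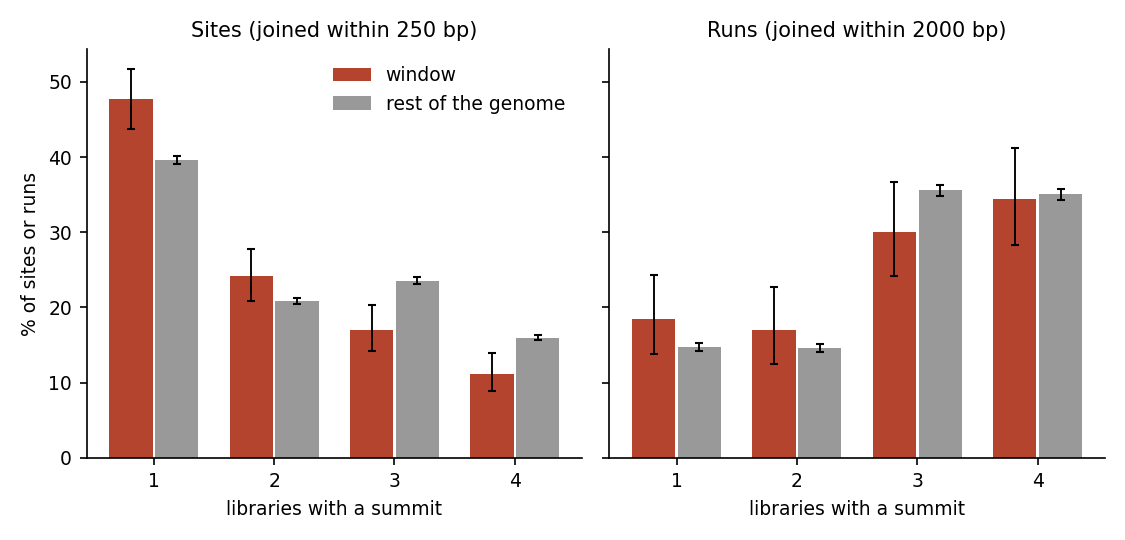
Share of sites (left) and of runs (right) with a summit in 1, 2, 3 or 4 libraries, in the window (red) and in the rest of the genome (grey), with Wilson 95% intervals. Sites in all 4 libraries made up 11.1% in the window and 15.98% elsewhere, and runs in all 4 made up 34.5% and 35.1%.

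Summits of the window ranked lower in their lists than summits elsewhere. Their median percentile was 57.7 and 65.6 for the activin libraries (replicates 1 and 2) and 57.9 and 53.8 for the palbociclib libraries, where the rest of the genome lay between 49.5 and 49.9. The difference was 9.07 ± 5.03 percentile points (SD, n = 4), positive in 4 of 4 libraries, with p = 0.125 in the exact sign-flip permutation test. It was 6.77 ± 2.51 (SD, n = 3) without activin replicate 2. The window was chosen with its summit counts known, and those counts include weak summits. The p-value is therefore a description, and is the smallest this test can give. The best-scored 10% of each list included 18, 7, 17 and 13 of the window's summits in the same order. These were 5.03%, 6.25%, 4.21% and 4.85% of them, against about 10.1% elsewhere. The groups did not part: the difference in median percentile, palbociclib minus activin, was -5.80 with an exact permutation p = 0.667 (two-sided), and 2 against 2 libraries cannot go below 0.333. Rank and sharing moved together, inside the window as elsewhere. In activin replicate 1, 74 of 74 window sites in the best 25% of its sites were in another library. In the weakest 25%, 62 of 120 were. These were 100% and 51.7%, against 99.1% and 50.1% in the rest of the genome. In palbociclib replicate 1 the counts were 70 of 72 and 30 of 122, or 97.2% and 24.6% against 99.2% and 32.4%. In palbociclib replicate 2 they were 49 of 49 and 50 of 70, or 100% and 71.4% against 99.3% and 72.7%. The part of these low ranks in the lower sharing of the window was not tested.

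Activin replicate 2 differed in this respect. Only 10 of its 14 window sites in the best 25% were in another library, 71.4% against 98.0% in the rest of the genome. The other 4 lay beside the 2 strongest sites of the window, an arrangement singled out after the values were seen. At 2011403 the score was 57.9 (percentile 0.845) and at 2011912 it was 26.7 (percentile 6.45). They lie -3412 and -2903 bp from the centre of the strong site at 2014798 to 2014833, negative distances pointing to the chromosome end. The remaining 2, at 2201866 and 2203872, scored 15.7 and 15.3 (percentiles 20.9 and 22.3). They lie -3429 and -1423 bp from the centre of the strong site at 2205278 to 2205312. In the other 3 lists neither stretch between these summits and the strong site held a summit. Of all 25 sites found in activin replicate 2 alone, 25 lay in runs with other sites. So did 33 of 33 sites found in palbociclib replicate 2 alone. For activin replicate 1 alone and palbociclib replicate 1 alone the counts were 72 of 78 and 117 of 147. These counts were not set beside the rest of the genome.

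**Figure D4:**
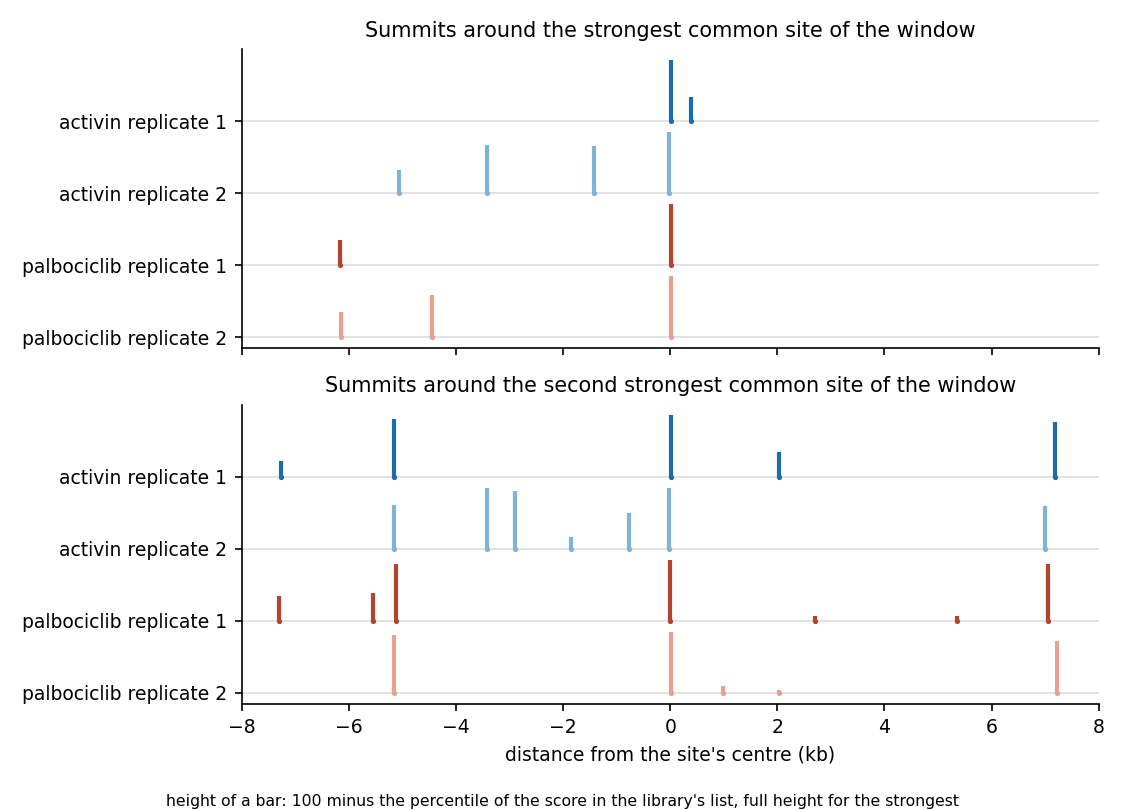
Summits within 8 kb of the centres of the strongest (top) and second strongest (bottom) common sites of the window, 1 row per library. Bar height is 100 minus the percentile of the score in the library's own list. All 4 libraries have a summit at 0, and activin replicate 2 has further summits on its left, such as those at -3412 and -2903 bp in the bottom panel.

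The strongest common site of the window lay at 2205278 to 2205312. In the activin libraries it ranked 41 and 29, with scores of 246 and 78.3. After palbociclib it ranked 77 and 53.5 (a tie), with scores of 391 and 224. The 4 summits lay within 35 bp. The second, at 2014798 to 2014833, ranked 14 and 11 after activin and 176 and 117 after palbociclib, with scores of 310 and 111 and of 312 and 190. Ranks from lists of unequal length are not on one scale. As percentiles within each list, the strongest site stood at 0.157 and 0.388 after activin and at 0.279 and 0.274 after palbociclib, so the groups overlapped. The second stood at 0.0512 and 0.139 after activin and at 0.643 and 0.606 after palbociclib, so both palbociclib values were weaker. Both sites stayed in the best 1% of every list. Among the sites common to all 4 libraries, the scale used further below, both sites counted as weaker in both palbociclib libraries. On that scale the strongest site stood at 0.686 and 0.463 after activin and at 1.27 and 0.901 after palbociclib. The third site, at 2955349 to 2955372, ranked 131.5 and 354.5 (ties) after activin and 127 and 200 after palbociclib, so the ranks overlapped.

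Below these the ranks fell off steeply, since only 3 common sites of the window were among the best 1000 of every list. The remaining 7 of the best 10 lay at 279393 to 279411, 2732355 to 2732435, 1755883 to 1755931, 103533 to 103543, 2009658 to 2009691, 2060026 to 2060050 and 2802062 to 2802229, with mean ranks from 806 to 2057. Of these 7 sites, 5 lay between 1755883 and 2802229, a stretch that also holds both leading sites. The ends of this stretch were set by the counted sites themselves, so the grouping is a description. Each of the 66 common sites had exactly 1 summit per library, and the median width from the first to the last summit was 49 bp.

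Ranks were next compared between treatments over the common sites, with percentiles taken among the 5829 sites found in all 4 libraries. The 66 sites of the window averaged percentile 55.1 and 57.9 in the activin libraries (replicates 1 and 2) and 60.6 and 59.1 in the palbociclib libraries. All 4 values were weaker than the genome's mean of 50, and both palbociclib values were weaker than both activin values. The group means were 56.5 ± 1.99 and 59.9 ± 1.08 (SD, n = 2 each). The difference was 3.34 percentile points, 5.51 within replicate 1 and 1.18 within replicate 2, with p = 0.333 in the exact permutation test (two-sided), the smallest it can give. Without activin replicate 2 the difference was 0.617 over 159 common sites. With lists cut to equal length it was 2.63 and the groups overlapped (exact permutation p = 0.667). With percentiles taken in each library's own list it was -14.7 and the groups overlapped too (exact permutation p = 1.0). Between libraries, Spearman's rho over the 66 sites was 0.887 for the palbociclib replicates, 0.721 for the activin replicates and 0.658 to 0.772 between treatments, given as a description.

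Single sites moved in both directions. Both palbociclib libraries ranked a site stronger than both activin libraries at 10 of the 66 sites, 15.2% (8.44 to 25.7), where the share over all common sites was 26.2%. They ranked it weaker at 20 sites, 30.3% (20.6 to 42.2), where the share over all common sites was 28.2%. The second count is near the background. The first lies below it, with an interval that ends just short of the genome-wide share. That interval takes sites as independent, although 53 of the 66 lie in runs with other sites, so it is no test of a difference. The first share also lay below the share over all common sites with each library left out in turn. Those values reuse the same libraries and sites and add no separate support. Without activin replicate 2 the share ranked stronger was 32.7% in the window and 36.9% over all common sites, and the share ranked weaker was 40.3% and 38.1%. With percentiles in each library's own list, 9 sites ranked stronger (13.6% against 25.4% over all common sites) and 2 ranked weaker (3.03% against 1.70%), so the count of weaker sites rested on how ranks were scaled. At 36 sites the groups overlapped in the percentiles among common sites. The 3 sites ranked stronger in bin 11 (2500001 to 2750000), of 4 common sites there, were the most of any bin. Bins 9 and 13 each held 3 sites ranked weaker, of 6 common sites each, the most in that direction. These bins were picked for their counts.

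**Figure D5:**
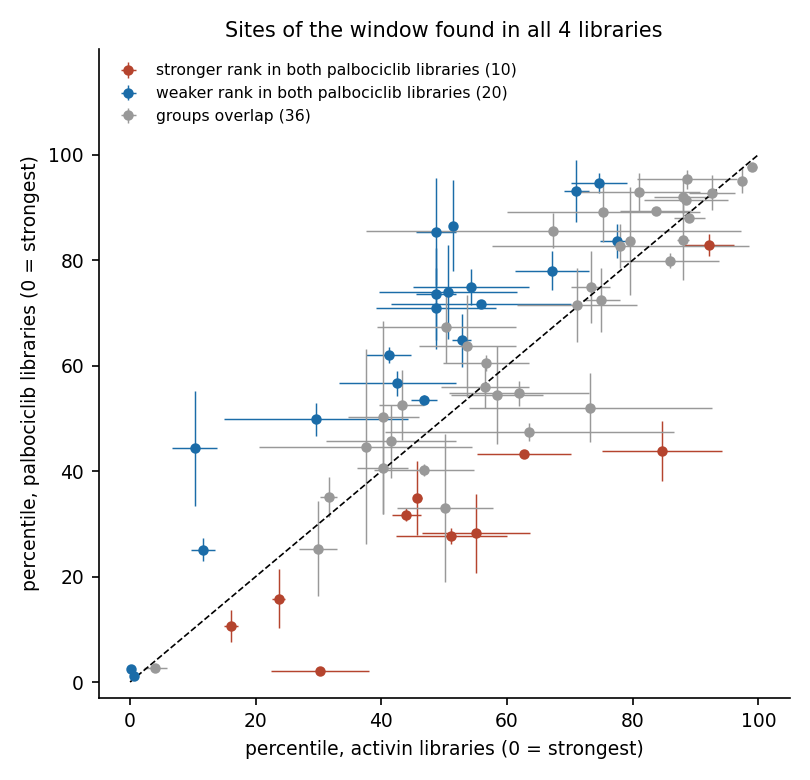
Percentile of the 66 common sites in the activin (horizontal) and palbociclib (vertical) libraries, 0 being the strongest of the 5829 common sites of the genome. Points are means of 2 libraries, bars run from one library to the other, and the dashed line marks equality. Red sites (10) ranked stronger and blue sites (20) weaker in both palbociclib libraries.

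The extremes are given as a description, since they were picked for their difference. The largest gain after palbociclib was at 4817120 to 4817181, from percentile 75.1 and 94.3 in the activin libraries to 49.5 and 38.2. The site at 2732355 to 2732435 moved from 22.4 and 38.1 to 2.28 and 1.78, which brought it to ranks 136 and 107 in the palbociclib lists from 1352 and 2390 in the activin lists. The site at 4526457 to 4526477 moved from 63.6 and 46.4 to 35.7 and 20.6, and that at 3450934 to 3451080 from 42.3 and 59.9 to 26.1 and 29.3. The fifth, at 1993152 to 1993189, moved from 53.9 and 92.6 to 45.5 and 58.6, so its groups overlapped.

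The largest loss was at 740305 to 740330, inside the largest run, from percentile 45.5 and 51.9 after activin to 95.5 and 75.2 after palbociclib. The site at 3285076 to 3285092 moved from 50.7 and 51.9 to 77.9 and 95.2. The site at 2060026 to 2060050 moved from 13.9 and 6.65 to 55.3 and 33.4, and was the only one of the 5 among the 10 strongest of the window. Those at 2255547 to 2255580 and 4664854 to 4664880 lost 24.9 and 23.3 points. At each of these 5 sites the groups did not overlap in the percentiles among common sites. With percentiles in each library's own list they overlapped at all of them except 2060026 to 2060050. That site stood at 3.28 and 5.56 after activin and at 13.0 and 10.7 after palbociclib.

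Sites called in 1 treatment only were few. Both palbociclib libraries and neither activin library had a summit at 23 sites, 3.88% of the window's sites (2.60 to 5.75), where the genome-wide share was 3.56%. Both activin libraries and neither palbociclib library had one at 5 sites, 0.843% (0.361 to 1.96), where the genome-wide share was 0.344%. Without activin replicate 2 the counts were 25 and 83. An activin-only call then needs 1 activin library, while a palbociclib-only call still needs 2, so this turn follows from the rule. In the 4 lists, sites in activin replicate 1 alone made up 13.2% of the window's sites and 13.4% elsewhere. The share of palbociclib-only sites is near the background, and the interval of the activin-only share starts just above it with 5 sites in all. That interval takes sites as independent, so it is no test of a difference.

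Neighbouring summits from the opposite treatment were present at shares near those of such sites genome-wide. Of the 23 palbociclib-only sites, 19 had an activin summit at most 2000 bp away, 82.6% (62.9 to 93.0) against 73.8% of palbociclib-only sites genome-wide, at a median distance of 524 bp over the 23. All 5 activin-only sites had a palbociclib summit within 2000 bp, at 451 to 1247 bp, against 93.7% of activin-only sites genome-wide. The sites without such a neighbour numbered 4 for palbociclib, 0.675% of the window's sites against 0.933% genome-wide. They lay at 88949 to 89003, 1555040 to 1555093, 2723806 to 2723828 and 4294611 to 4294697, and all scored 13.6 or less. For activin the number was 0, where the genome-wide share was 0.0218%.

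At 3 places a palbociclib-only and an activin-only site faced each other. The best-ranked palbociclib-only site, at 3021900 to 3021904 with scores of 86.2 and 29.7, lay 609 bp from the activin-only site at 3022513 to 3022519, with scores of 56.8 and 4.76. The site at 775913 to 775944 (54.7 and 20) lay 470 bp from that at 776414 to 776629 (54.7 and 2.02). The site at 1829452 to 1829493 (62.8 and 21.2) lay 1247 bp from that at 1828145 to 1828205 (40.2 and 4.48). Other activin summits lay nearer, at 292 bp from the palbociclib-only site at 3021900 and at 419 bp from that at 1829452. In each of the 3 pairs both treatments had summits in the same run. The number of such pairs was not set beside a genome-wide count. The other leading palbociclib-only sites, at 3314393 to 3314444 and 4743393 to 4743403, had activin summits at 299 and 355 bp. The other leading activin-only sites, at 3332731 to 3332744 and 572499 to 572632, had palbociclib summits at 451 and 634 bp. No activin-only site of the window scored above 6.59 in activin replicate 2.

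The difference in the window's share of summits between treatments changed with the libraries and summits used. The share was 1.47% ± 0.103 after activin and 1.44% ± 0.0611 after palbociclib (SD, n = 2 each). The log2 ratio was -0.04, with an exact permutation p = 0.667 (two-sided), and it was 0.08 within replicate 1 and -0.15 within replicate 2. Its sign turned without activin replicate 2 (0.04), without palbociclib replicate 2 (0.00813) and with scores of at least 20 (0.19). With lists cut to equal length it was -0.24, with 86 and 112 summits of the window after activin and 81 and 85 after palbociclib. Both palbociclib libraries then lay below both activin libraries, by 1 summit at the nearest (exact permutation p = 0.333, the smallest it can give). This cut keeps the whole list of activin replicate 2, weak summits included, but only the best summits of the others. In the full lists the difference between the groups was smaller than the spread between the activin replicates.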

How the data were processed

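Peak summits of the 4 SMAD2 ChIP-seq libraries were used, and the 2 inputs were not analysed here. The tools named per the submitters' processing notes are MACS2 2.0.9, Bowtie 1.1.0 and Picard, with build hg19. Tool settings were not given in the sources at hand. The deposited score of each summit is on a −log10 scale. It was read as a q-value because every list starts between 1.31 and 1.40, just above 1.30 (−log10 of 0.05), and it was used as a rank or threshold within a list. A score grows with depth, which is unknown here. Positions are 1-based, and a site runs from its first to its last summit. A wide peak is represented by its summit alone, so the same peak can give different sites in 2 libraries.

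Percentiles average ties. Shares carry Wilson 95% intervals. Library values were compared by exact permutation tests. Functions were tested on simulated lists. Alternatives covered joining distance, equal-length lists, a score of at least 20, bin and window size, and left-out libraries. Named sites are the 10 strongest common sites, the 5 best of each treatment-only kind, the 5 largest gains and losses, and the window's edges. The window, members and rules were chosen with earlier results of these data known. Sequences were not used here. Scripts ran in Python 3.11.15 with scipy 1.17.1, pandas 2.3.3, matplotlib 3.10.9 and numpy 2.4.6.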

Additional observations from a re-analysis of the deposited data

How the results depend on the processing

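Of 81 alternative values over 12 results, 44 kept their direction or stayed near the reported value. The log2 ratio of the window's share of summits turned to 0.19 with scores of at least 20, and ran from -0.107 to 0.0361 with 1 library left out (0.0361 without activin replicate 2, 0.00813 without palbociclib replicate 2). The mean percentile difference of common sites turned to -14.7 with percentiles in each library's own list, where lists of unequal length set the scale. It kept its sign with each library left out, from 0.617 to 4.05. With own-list percentiles, 2 common sites of the window ranked weaker in both palbociclib libraries (3.03% against 1.70% over all common sites). With equal-length lists the log2 ratio was -0.242 and the percentile difference 2.63. Common sites made up 8.61% of sites joined within 100 bp, 15.5% within 500 bp, 34.5% within 2000 bp and 33.3% in equal-length lists. With 1 library left out this share ran from 11.7% to 28.0%. Palbociclib-only sites numbered 12 joined within 500 bp, 4 within 2000 bp, 4 in equal-length lists and 4 with no activin summit within 2000 bp. Activin-only sites numbered 3 joined within 100 or 500 bp and 0 within 2000 bp or with no palbociclib summit within that distance. Fewer libraries ease these calls by construction. With 1 left out, palbociclib-only sites ran from 25 to 173 and activin-only sites from 6 to 83. These counts were not set beside genome-wide shares. Sites ranked stronger ran from 17 to 52 and weaker from 29 to 64. As shares of common window sites, stronger ran from 24.3% to 32.7%, against 34.6% to 39.7% over all common sites. Weaker ran from 40.3% to 49.3%, against 37.6% to 43.9%. Window bins with a higher palbociclib share ran from 5 to 9, against 26.7% to 51.1% of bins genome-wide. Those with a lower share ran from 4 to 7, against 19.4% to 35.1%. The window-minus-rest difference in median percentile ran from 6.77 to 10.8 and that in sharing from -12.4 to -6.09 (leaving libraries out of these 4 results was added after the data were seen). The densest bin held 8.09% of sites in 100 kb bins (700001 to 800000) and 17.2% in 500 kb bins (500001 to 1000000). In 250 kb bins it was bin 13, but bin 3 with scores of at least 20 or without palbociclib replicate 1. The replicate numbers are shared by the groups, but the labels tie them to nothing else. With the number as a replicate block the log2 ratio stayed at -0.04 (exact sign-flip p = 1.0) and the percentile difference at 3.34 (exact sign-flip p = 0.5, the smallest 2 pairs can give). The motif comparison was not run, because a genome of the build was not used here.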
